A study of Mus musculus with 18 samples.

Results

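The genes described here are 10 mouse genes that build or hold the transverse tubules of skeletal muscle and their junctions with the sarcoplasmic reticulum: Bin1, Dnm2, Mtm1, Mtmr14, Cav3, Dysf, Jph1, Jph2, Speg and Stac3. They were listed by name for their role, with earlier results of these data known, and are 10 of the 46725 genes in the files. The data were RNA-seq counts from 18 libraries, made from 9 mice, of which 3 were WT, 3 were HSA-LR and 3 were HSA-LR given Pip6a-PMO, with a gastrocnemius and a quadriceps library from each animal. WT mice were of the FVB strain and carried no transgene, and HSA-LR mice, on the same strain, carry the human skeletal actin gene with an expanded CTG repeat in its 3′ UTR. The actin promoter drives the repeat RNA in skeletal muscle, and the line models the toxic RNA of myotonic dystrophy type 1 without the mutated human DMPK gene. Pip6a-PMO is an antisense morpholino against the repeat joined to a cell-penetrating peptide and was given as intravenous injections of 160 µL. WT and HSA-LR mice were labelled untreated, all mice were 20 weeks old, and each library is a bulk sample of a whole muscle from 1 mouse. A library held 98916844 to 143135976 counts of read pairs over exon bins, the non-overlapping pieces into which the annotated exons of a gene are divided.

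Transverse tubules are inward folds of the muscle membrane that carry the action potential into the fiber, and a triad is a tubule flanked by a pair of sarcoplasmic reticulum cisternae, across which depolarization is turned into calcium release. Amphiphysin 2, the product of Bin1, bends the membrane into tubules, dynamin 2 cuts membrane necks, and the phosphatases Mtm1 and Mtmr14 act on phosphoinositides. Caveolin 3 shapes caveolae and young tubules, dysferlin takes part in membrane repair, junctophilins pin the tubule to the reticulum, Speg is a kinase at the triad, and Stac3 is an adaptor of the voltage sensor. Mutations of BIN1, DNM2, MTM1 and SPEG in patients cause centronuclear myopathies.

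An exon pair of Dnm2 is printed here because the choice between its members was the largest change within that gene. Both are coding exons of 139 bp on the plus strand of chromosome 9 in GRCm38, bin 022 at chr9:21478899-21479037 and bin 024 at chr9:21480407-21480545. Of the 8 coding transcripts in GENCODE M21, 5 hold bin 022 and 3 hold bin 024, and 0 transcripts hold both. The exons share 95 of 139 positions, an identity of 68.3%, and capitals mark the 44 positions at which they differ.
Dnm2 bin 022: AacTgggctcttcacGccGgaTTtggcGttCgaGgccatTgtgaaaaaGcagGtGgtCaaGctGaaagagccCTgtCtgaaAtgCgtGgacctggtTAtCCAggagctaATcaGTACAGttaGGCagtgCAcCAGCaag
Dnm2 bin 024: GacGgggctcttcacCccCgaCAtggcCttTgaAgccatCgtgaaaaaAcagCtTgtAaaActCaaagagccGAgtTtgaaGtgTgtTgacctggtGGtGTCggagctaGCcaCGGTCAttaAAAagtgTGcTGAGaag

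Some libraries stood apart or went against their labels. The library of the third Pip6a-PMO mouse from gastrocnemius had a log2 ratio of counts at the first over the last bins of its genes of -0.52, against -0.14 to 0.03 in the other 17, which places its counts more toward the 3′ ends of transcripts. Changes of the 10 genes with treatment in gastrocnemius that were called are given with and without it. The sex labels of 2 WT mice went against Y-linked genes: WT mouse 2, labelled female, had 153 and 188 CPM (counts per 1000000 counts of a library) of them in its 2 muscles, and WT mouse 3, labelled male, had 1.14 and 1.43. Neither changes the group of a mouse. In the HSA-LR and treated libraries these genes summed to 134 to 188 CPM, so by these counts only the WT group held a female mouse. Sex was not in any model, and its part in the comparisons with WT mice was not tested. The 8 fiber markers, among them Acta1, Ckm and Myh4, summed to 151250 to 261221 CPM in the 18 libraries. In quadriceps they were lower in HSA-LR mice (151250 to 178967) than in WT (184163 to 208447) and treated mice (182184 to 226739), without overlap. Of the 9 other marker lists, 6 did not overlap between HSA-LR and WT quadriceps, where 33.2% of single genes tested did not overlap. Macrophage markers were higher in HSA-LR mice (89.4 to 118 CPM against 47.3 to 67.2), as were the 4 of 6 fibroblast markers found (804 to 853 against 507 to 643) and satellite and regenerating markers (46.1 to 51.0 against 24.9 to 40.7). Endothelial markers were lower (201 to 242 against 299.8 to 382), as were smooth muscle (169.6 to 209 against 232 to 319.6) and Schwann and nerve markers (48.5 to 72.6 against 88.1 to 112). In treated quadriceps the 6 lists summed to 45.5 to 67.6, 639 to 825, 43.0 to 45.5, 216 to 335, 203 to 249.6 and 61.3 to 102 CPM in that order. In gastrocnemius 36.2% of single genes tested did not overlap between HSA-LR and WT mice. Of the lists, 3 did not overlap there, the adipocyte markers at 2647 to 2710 CPM against 1766 to 2293, Schwann and nerve markers at 92.3 to 116 against 119.7 to 139 and erythroid markers at 507 to 678 against 775 to 3867. Treated gastrocnemius had 1095 to 1849, 83.1 to 167 and 905 to 3152 CPM of them, and its slow-fiber markers reached 14367 CPM against at most 5271 in the other groups. No marker of these lists was at 0, and their part in the results was not tested. In these bulk samples, fewer cells of a type and less RNA per cell cannot be told apart.

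HSA-LR mice were compared with WT mice to ask what the repeat changed, and treated with untreated HSA-LR mice to ask what the injections changed. Both comparisons use the same HSA-LR libraries. In HSA-LR gastrocnemius, 3 of the 10 genes changed, with Cav3 and Dysf higher and Jph2 lower, against 15.5% of all genes tested (edgeR quasi-likelihood test, adjusted P under 0.1 with Benjamini-Hochberg adjustment over all genes, as throughout). In HSA-LR quadriceps 4 changed, with Bin1, Cav3 and Dysf higher and Dnm2 lower, against 20.3% of all genes. The median log2 change of the 10 was -0.10 in each muscle, beside -0.01 and 0.01 for all genes. After Pip6a-PMO, 2 genes rose in gastrocnemius, Jph2 and Stac3, against 10% of all genes, and 3 rose in quadriceps, Jph2, Speg and Dnm2, against 13.8%. The 3 mice of a group did not overlap those of the other in 7 and 8 of the 10 genes for HSA-LR against WT mice, and in 5 and 5 for treated against HSA-LR mice, where 36.2% and 33.2%, then 29.3% and 31.9%, of all genes tested did not overlap. Treated and WT mice differed in 0 of the 10 genes in either muscle by the same test, where 1.04% and 1.41% of all genes were called. In each muscle 1 gene, Cav3, had an unadjusted P under 0.05 there, and DESeq2 called 0 in gastrocnemius and 1, Cav3, in quadriceps.

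Exon use was tested as the change of a bin relative to the rest of its gene (edgeR diffSpliceDGE, adjusted over all bins). The 10 genes have 340 bins, of which 291 in gastrocnemius and 289 in quadriceps had enough counts to be tested. HSA-LR mice used 8 of these bins more than WT mice in gastrocnemius and 6 in quadriceps, all in Bin1, Dnm2 and Speg, and 0 less. Of all bins tested, 0.819% and 0.284% were called. After treatment 3 bins of Bin1 and Dnm2 were used less in gastrocnemius and 6 bins of Bin1, Dnm2 and Speg in quadriceps, with 0 used more, against 0.309% and 0.168% of all bins. Treated and WT mice differed in 0 bins of the 10 genes, where 4 and 1 had an unadjusted P under 0.05 and 0.0654% and 0.0353% of all bins were called. No bin of Mtm1, Mtmr14, Cav3, Dysf, Jph1, Jph2 or Stac3 was called in these 6 comparisons.

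Bin1, which codes for the membrane-bending protein itself, lies on chromosome 18 at 32377230 to 32435737, plus strand. It was the most abundant of the 10 per length in WT muscle, at 332 ± 18.03 CPM per kb in gastrocnemius and 312 ± 6.04 in quadriceps (SD, n = 3). That length is of the 1 transcript matched to its bins. A pair counts in each bin it overlaps, which gives genes with short bins, as Bin1, more weight. The gene sum of Bin1 in quadriceps was 738, 766 and 748 CPM in WT mice, 989, 889 and 1001 in HSA-LR mice and 783, 685 and 866 in treated mice. All 3 HSA-LR mice thus lay above the other 6. The gene rose by 0.36 ± 0.10 on the log2 scale (SE, adjusted P = 0.0437), a call that was lost without HSA-LR mouse 1 or 3 or WT mouse 1 or 3, with adjusted P of 0.101 to 0.144. Treated mice were lower than HSA-LR mice by a log2 change of -0.30 ± 0.10, just above the threshold (adjusted P = 0.101), and were called in 5 of 17 other settings, without treated mouse 3 (adjusted P = 0.0616), by DESeq2 (adjusted P = 0.0486), with the largest bin, with upper-quartile scaling and with a minimum of 10 counts a library (adjusted P of 0.0868 to 0.0892). In gastrocnemius the levels were 848, 769 and 778 CPM in WT mice and 953, 998 and 944 in HSA-LR mice, again without overlap. The difference of 0.26 ± 0.14 was not called with all 9 libraries (adjusted P = 0.274) and was called without treated mouse 3 (adjusted P = 0.0597). Of 17 other settings, 15 did not call it, and the lowest adjusted P was 0.0584. The treated mice there spread from 756 through 873 to 1125 CPM, wider than either other group, and 1125 was the 3′-shifted library. Their difference from HSA-LR mice was -0.06 ± 0.14 (adjusted P = 0.821) and, without that library, -0.25 (adjusted P = 0.167).

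The bins of Bin1 were matched to exons by number, since the files hold an earlier version of the gene with 19 bins where GENCODE M21 has 28. A single annotated transcript divides into 19 bins, and the positions given for bins of Bin1 are those of its exons. The other 2 sets that give 19 bins, of 3 transcripts each, would make bin 007 an exon that all 5 coding transcripts hold. In the version used here, bin 007 is a 93 bp coding exon at 32414945 to 32415037 that 1 of 5 coding transcripts holds. The muscle-specific exon of Bin1 that codes for the phosphoinositide-binding stretch has no bin of its own in this match of 19 bins to exons, so its use is not given.

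Bin 007 was the most strongly changed bin of the 10 genes. It took 0.0774%, 0.0466% and 0.0436% of Bin1 counts in the gastrocnemius of WT mice 1 to 3, 0.456%, 0.627% and 0.470% in HSA-LR mice, and 0.0931%, 0.0655% and 0.0695% in treated mice. In quadriceps the shares were 0.0644%, 0.0550% and 0.0447% in WT mice, 0.477%, 0.560% and 0.558% in HSA-LR mice, and 0.0525%, 0.0737% and 0.0537% in treated mice. Every HSA-LR library stood well above all WT and treated libraries, which overlapped each other. Counts behind these shares were 508 to 815 in HSA-LR libraries and 39 to 93 in the others. Relative use rose by 3.21 ± 0.27 on the log2 scale in HSA-LR gastrocnemius (adjusted P = 1.51e-27) and by 3.28 ± 0.24 in quadriceps (adjusted P = 5.34e-37). With treatment it fell by 2.81 ± 0.26 in gastrocnemius (adjusted P = 1.35e-23), and in quadriceps it fell by 3.16 ± 0.24 (adjusted P = 5.40e-35). Without the 3′-shifted library the change in gastrocnemius was -2.72 (adjusted P = 5.81e-27). Treated mice differed from WT mice by 0.40 ± 0.23 and 0.12 ± 0.26, neither called. The exact permutation test of the shares, 3 mice against 3 and two-sided, gave p = 0.1 for HSA-LR against WT and for treated against HSA-LR mice in both muscles, the smallest value this design allows. Per base, bin 007 had a ratio to its neighbours, bins 006 and 008, of 0.00772 ± 0.00253 in WT, 0.0748 ± 0.0141 in HSA-LR and 0.0108 ± 0.00203 in treated gastrocnemius (SD, n = 3). In quadriceps the ratios were 0.00768 ± 0.00120, 0.0780 ± 0.00730 and 0.00852 ± 0.00194. In all groups the exon was thus read far below its neighbours.

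**Figure D1:**
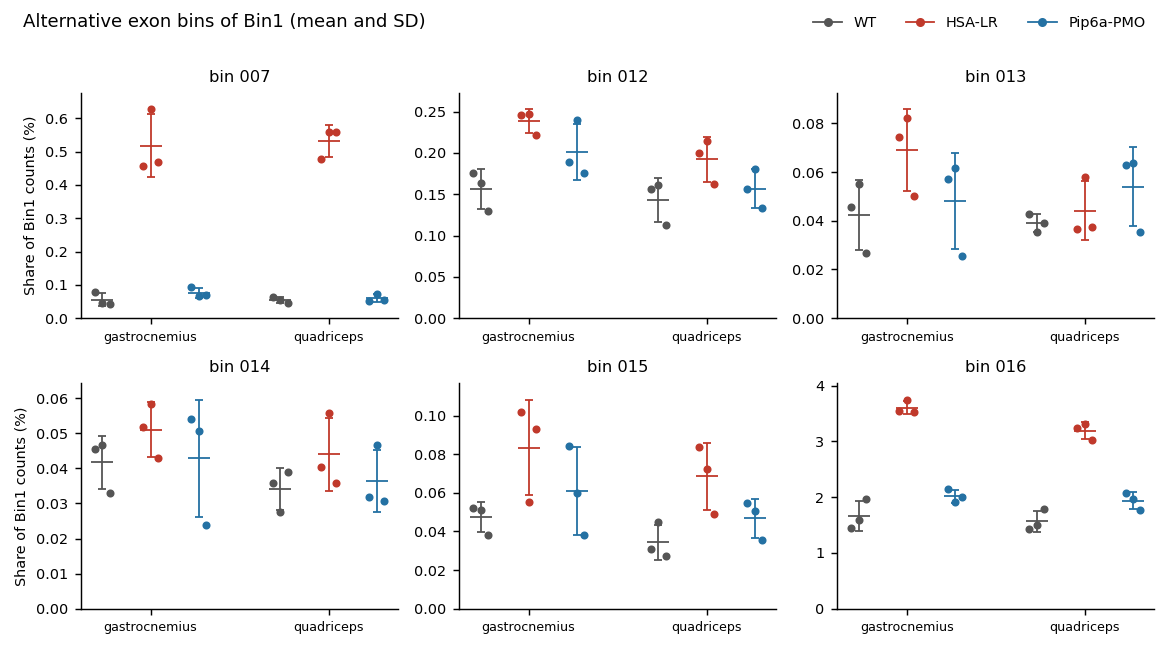
Share of Bin1 counts taken by each of 6 alternative exon bins (percent, y axis, starting at 0) in WT, HSA-LR and Pip6a-PMO libraries of gastrocnemius and quadriceps. Points are single libraries and bars the mean and SD of 3 mice. HSA-LR points lie apart from the other groups for bins 007 and 016, where the means in gastrocnemius go from 0.0559% to 0.518% and from 1.67% to 3.61%, and groups lie closer for bins 012 to 015.

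Bin 016, a 72 bp coding exon at 32431671 to 32431742 that 3 of 4 coding transcripts hold, followed the same order at a higher level. Its share in gastrocnemius was 1.44%, 1.60% and 1.96% in WT mice, 3.55%, 3.74% and 3.53% in HSA-LR mice, and 2.14%, 1.91% and 2.001% in treated mice. HSA-LR mice lay apart from both other groups. Relative use rose by 1.12 ± 0.21 (adjusted P = 3.55e-05) and, in quadriceps, by 1.02 ± 0.22 (adjusted P = 0.00326), where mean shares were 1.57% ± 0.189, 3.19% ± 0.154 and 1.94% ± 0.151 (SD, n = 3) in WT, HSA-LR and treated mice. With treatment it fell by 0.85 ± 0.20 in gastrocnemius (adjusted P = 0.0188), a call lost without any 1 of the 3 HSA-LR mice (adjusted P of 0.128 to 0.234) and kept, at -0.84, without the 3′-shifted library (adjusted P = 0.0130). In quadriceps the change with treatment was -0.72 ± 0.22 and was not called (adjusted P = 0.373), though limma voom and the DEXSeq model called it (adjusted P = 1.37e-05 and 1.10e-07). Against bins 011 and 017 on either side, bin 016 was read at 0.362 ± 0.0635 per base in WT, 0.765 ± 0.0275 in HSA-LR and 0.426 ± 0.0327 in treated gastrocnemius.

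The run of coding exons between these neighbours, bins 012 to 015, stayed rare in every group. Bin 012 (129 bp, 32426224 to 32426352) took 0.156% ± 0.0237 of Bin1 in WT gastrocnemius, 0.238% ± 0.0144 in HSA-LR and 0.202% ± 0.0338 in treated mice (SD, n = 3). Bin 015 (108 bp, 32430750 to 32430857) took 0.0473% ± 0.00778, 0.0834% ± 0.0247 and 0.0608% ± 0.0229. In quadriceps bin 012 took 0.143% ± 0.0270, 0.192% ± 0.0270 and 0.157% ± 0.0237 in the same order. Bin 015 took 0.0344% ± 0.00907, 0.0684% ± 0.0175 and 0.0469% ± 0.0101 there. For both bins HSA-LR mice did not overlap WT mice in either muscle. In gastrocnemius neither was called in the 9-library test (adjusted P = 0.189 and 0.145 for HSA-LR against WT). Both were called without treated mouse 3 (adjusted P = 0.0348 and 0.0481), and bin 015 also without HSA-LR mouse 2 (adjusted P = 0.0778). For each, 13 of 16 other settings did not call it, and the lowest adjusted P were 0.0340 and 0.0393. In quadriceps neither was called. Bin 015 changed there by 0.98 ± 0.32 (adjusted P = 0.405), and its lowest adjusted P of 16 other settings was 0.0911. Bins 013 and 014, of 108 bp and 24 bp, were not called in any comparison, with shares of 0.0238% to 0.0823% in the gastrocnemius libraries.

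Dnm2, coding for the membrane-cutting GTPase dynamin 2, lies at chr9:21424908-21507759 on the plus strand. Its gene sum in quadriceps was 85.7, 80.7 and 83.8 CPM in WT mice, 73.6, 71.1 and 72.7 in HSA-LR mice, and 86.5, 90.1 and 89.1 in treated mice. The HSA-LR mice were the lowest 3 of 9 and the treated mice the highest 3. Dnm2 fell by 0.20 ± 0.06 in HSA-LR quadriceps (adjusted P = 0.0642) and rose by 0.29 ± 0.06 with treatment (adjusted P = 0.0288). The first call was lost with 6 of the 9 libraries left out in turn (every one but WT mouse 2 and treated mice 2 and 3, adjusted P of 0.102 to 0.166), with the replicate block (adjusted P = 0.106) and in 3 further settings, and the second without HSA-LR mouse 1 (adjusted P = 0.1002). In gastrocnemius the changes were -0.20 ± 0.08 (adjusted P = 0.153) and 0.23 ± 0.08 (adjusted P = 0.129), neither called. With the largest bin in place of the sum, both were called (adjusted P = 0.0749 and 0.0557), and the second also by DESeq2 and without treated mouse 3 (adjusted P = 0.0496 and 0.0948).

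Within the gene, the exon pair printed above moved more than the gene sum. Bin 024 took 12.6%, 12.96% and 14.7% of the counts of the pair in the gastrocnemius of WT mice 1 to 3, 37.8%, 36.9% and 34.04% in HSA-LR mice, and 14.7%, 9.89% and 6.96% in treated mice. In quadriceps it took 16.6%, 12.9% and 15.3%, then 40.8%, 44.3% and 45.0%, then 13.8%, 13.6% and 10.8%. Every HSA-LR library lay far above all other libraries of its muscle, and treated and WT mice overlapped. The difference of means between HSA-LR and WT mice was 22.8 percentage points in gastrocnemius and 28.5 in quadriceps, that between treated and HSA-LR mice was -25.7 and -30.6 points, all with p = 0.1 by the exact permutation test, the smallest possible. Bin 024 was named for its call in HSA-LR against WT mice, and bin 022 after its values were seen. Both choices used these libraries, so these p-values are descriptions. Without the 3′-shifted library, the difference between treated and HSA-LR gastrocnemius was -23.9 points. Treated against WT mice gave p = 0.4 and 0.3 by the same exact test. The counts of bin 024 were small, 97 to 159 in HSA-LR libraries and 16 to 60 in the others.

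Relative to the rest of Dnm2, bin 024 rose by 1.48 ± 0.25 in HSA-LR gastrocnemius (adjusted P = 5.07e-06) and by 1.62 ± 0.28 in quadriceps (adjusted P = 8.63e-06). With treatment it fell by 1.85 ± 0.26 (adjusted P = 9.86e-09), and in quadriceps it fell by 1.78 ± 0.28 (adjusted P = 4.90e-07). Without the 3′-shifted library, which had the fewest counts of the bin, the change in gastrocnemius was -1.63 (adjusted P = 2.06e-06). Bin 022, singled out after its values were seen, took 2.79% ± 0.127 of Dnm2 in WT, 2.15% ± 0.0315 in HSA-LR and 2.77% ± 0.169 in treated gastrocnemius, and 2.90% ± 0.176, 2.04% ± 0.0598 and 3.11% ± 0.132 in quadriceps (SD, n = 3). HSA-LR mice did not overlap the other groups in either muscle. Its relative change of -0.38 ± 0.19 and -0.51 ± 0.22 in HSA-LR mice was not called by the main test (adjusted P of 1 in both muscles) but was by the DEXSeq model (adjusted P = 0.0466 and 0.00188) and by limma voom (adjusted P = 0.0470 and 0.00145).

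**Figure D2:**
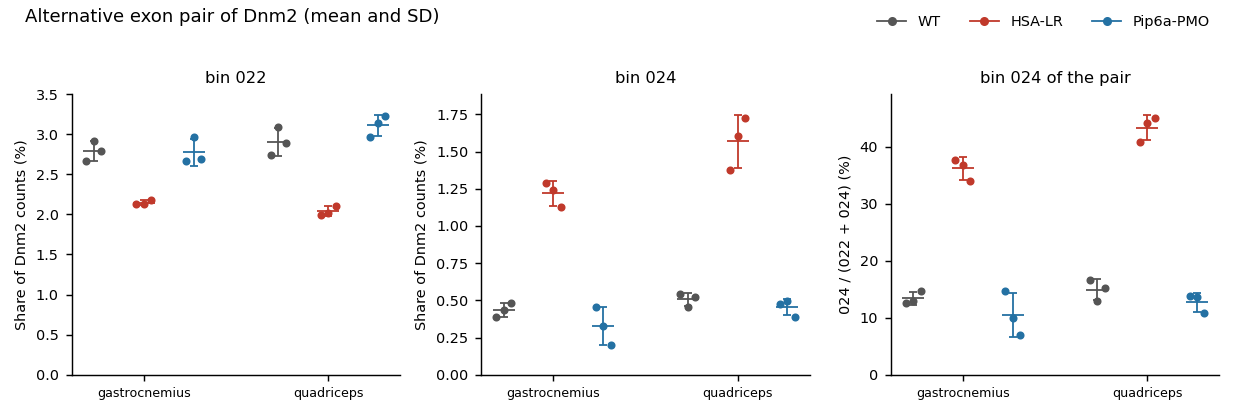
Share of Dnm2 counts in bin 022 (left), in bin 024 (middle) and share of bin 024 in the sum of both (right), in percent, for the 3 groups in both muscles. Points are single libraries, bars the mean and SD of 3 mice. Bin 022 is lower and bin 024 higher in HSA-LR mice, whose share of bin 024 in the pair averages 36.2% in gastrocnemius and 43.4% in quadriceps against 10.52% to 14.9% in the other groups.

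Neither phosphoinositide phosphatase was called in any comparison. Mtm1, coding for myotubularin and placed at chrX:71210767-71315691 on the plus strand, was the least abundant of the 10 per length, at 1.04 to 1.23 CPM per kb on average in WT muscle. That length includes long bins found only in noncoding transcripts, such as bin 033 of 2435 bp, which lowers the value. The gene sum of Mtm1 was 14.2 to 14.8 CPM in WT, 14.6 to 16.9 in HSA-LR and 11.7 to 16.2 in treated gastrocnemius, with overlap throughout. Mtmr14, a relative that acts on the same lipids, at chr6:113237843-113281392, stood at 39.4 to 45.8, 39.1 to 40.6 and 40.3 to 52.4 CPM. The log2 changes of both lay between -0.12 and 0.23 in the 6 comparisons within a muscle, the smallest adjusted P was 0.238, and none of the 17 other settings called either gene in HSA-LR against WT or treated against HSA-LR mice. The bin of Mtm1 with the smallest P for HSA-LR against WT was 021 and that of Mtmr14 was 002, and neither was called.

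Cav3, the muscle caveolin, at chr6:112459505-112472872, was higher in HSA-LR mice of both muscles. Its gene sum in gastrocnemius was 21.8, 19.6 and 20.3 CPM in WT mice, 28.7, 30.7 and 30.5 in HSA-LR mice, and 24.03, 23.4 and 28.3 in treated mice. In quadriceps it was 17.4, 17.2 and 20.0, then 27.5, 25.9 and 31.8, then 24.4, 21.8 and 24.8 CPM. In both muscles the 3 groups did not overlap, with treated mice between the others. Cav3 rose by 0.53 ± 0.09 in HSA-LR gastrocnemius (adjusted P = 0.00785) and by 0.64 ± 0.11 in quadriceps (adjusted P = 0.00579), calls kept in all 17 other settings. Treated mice were below HSA-LR mice by -0.24 ± 0.09 (adjusted P = 0.168) and -0.26 ± 0.11 (adjusted P = 0.162) and above WT mice by 0.29 ± 0.09 (adjusted P = 0.283) and 0.38 ± 0.11 (adjusted P = 0.193). None of these was called with all libraries by edgeR. Without treated mouse 3, the difference from HSA-LR mice in gastrocnemius was -0.34 and was called (adjusted P = 0.0437). Its 2 exons kept their proportions, with bin 001 at 27.4% to 29.98% of the gene in all 18 libraries.

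Dysf, coding for dysferlin at chr6:84008590-84211060, rose beside Cav3. Levels in gastrocnemius were 248, 239 and 258 CPM in WT mice, 313, 279 and 321 in HSA-LR mice, and 249, 274 and 231 in treated mice. In quadriceps they were 244, 239.8 and 245, then 314, 263.3 and 327, then 265, 263.3 and 279.9 CPM. HSA-LR mice did not overlap WT mice in either muscle, and in quadriceps HSA-LR mouse 2 was level with the treated mice. The gene rose by 0.28 ± 0.09 (adjusted P = 0.0915) and 0.31 ± 0.09 (adjusted P = 0.0466). Of 17 other settings, 7 kept the first call and 12 the second. The call in gastrocnemius was near the threshold and was lost with the replicate block (adjusted P = 0.174) and without 7 of the 9 libraries, all but treated mice 2 and 3 (adjusted P of 0.113 to 0.268), that in quadriceps without HSA-LR mouse 1 or 3 or WT mouse 1 or 2 (adjusted P of 0.113 to 0.170). With the largest bin of the gene in place of its sum, neither was called, and the change in gastrocnemius was 0.13 (adjusted P = 0.462 and, in quadriceps, 0.131). The change with treatment was -0.27 ± 0.09 in gastrocnemius (adjusted P = 0.133) and -0.16 ± 0.09 in quadriceps (adjusted P = 0.290), neither called with all libraries. In gastrocnemius the lowest adjusted P of 17 other settings was 0.0880, and without the 3′-shifted library the change was -0.22 (adjusted P = 0.186).

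**Figure D3:**
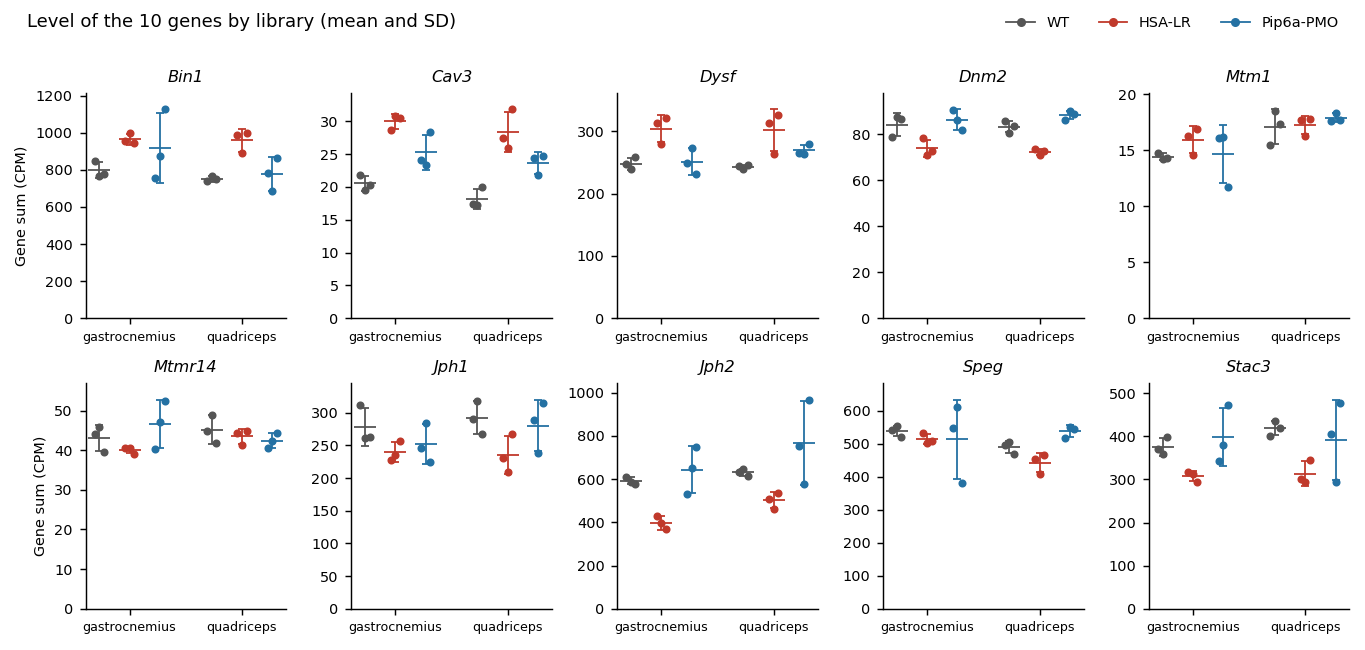
Gene sums of the 10 genes in CPM (y axis, starting at 0) by group and muscle. Points are single libraries, bars the mean and SD of 3 mice. Jph2 is lower and Cav3 higher in HSA-LR than in WT mice, and the treated mice of Jph2 spread from 530.3 to 966 CPM over both muscles.

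The junctophilins bridge the tubule and the reticulum, Jph2 being the isoform shared with heart and Jph1 that of skeletal muscle. Jph2, at chr2:163336242-163397993 on the minus strand, fell in HSA-LR gastrocnemius and rose with treatment in both muscles. Its gene sum in gastrocnemius was 611, 586 and 579 CPM in WT mice, 429.9, 395 and 367 in HSA-LR mice, and 530.3, 650.3 and 747 in treated mice. The HSA-LR mice lay below all others, and the treated mice spanned the WT level. Jph2 fell by 0.59 ± 0.13 (adjusted P = 0.0188) and rose by 0.70 ± 0.13 with treatment (adjusted P = 0.0171), calls that were kept in all 17 other settings. Without treated mouse 3, the highest of the treated libraries, the rise was 0.57 (adjusted P = 0.0313). In quadriceps the levels were 632, 647 and 616 CPM in WT mice, 509, 463 and 537 in HSA-LR mice, and 754, 579 and 966 in treated mice. HSA-LR mice were again the lowest 3. The change against WT mice was -0.33 ± 0.16 and was not called (adjusted P = 0.224), but was called with the 2 groups alone (adjusted P = 0.0507) and without treated mouse 2 or 3 (adjusted P = 0.0833 and 0.0868). The rise with treatment was 0.61 ± 0.16 (adjusted P = 0.0559) and was lost without HSA-LR mouse 1 or 2 or treated mouse 1 or 3 (adjusted P of 0.103 to 0.167).

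Jph1, at chr1:16964560-17097889 on the minus strand, was lower in HSA-LR than in WT mice without being called. It stood at 312, 261 and 262 CPM in WT, 227, 235 and 257 in HSA-LR and 246, 284 and 225 in treated gastrocnemius. The HSA-LR mice lay just under the WT mice. The log2 changes against WT mice were -0.23 ± 0.11 (adjusted P = 0.257) and, in quadriceps, -0.31 ± 0.13 (adjusted P = 0.159), the latter called without HSA-LR mouse 3 (adjusted P = 0.0898). Neither junctophilin had a bin whose relative use was called. Stac3, the adaptor that holds the voltage sensor at the triad, at chr10:127501686-127508823, had 369.9, 358 and 398 CPM in WT, 317, 312 and 295 in HSA-LR and 343, 379 and 472 in treated gastrocnemius. HSA-LR mice were the lowest 3. The change against WT mice was -0.30 ± 0.12 (adjusted P = 0.150), called without treated mouse 3 (adjusted P = 0.0352) and not called in 15 of 17 other settings. The gene rose by 0.38 ± 0.12 with treatment (adjusted P = 0.0997), a call at the edge of the threshold that was lost in 13 of 17 other settings, the replicate block included (adjusted P = 0.159), and without each HSA-LR mouse, WT mouse 1 or 2 or treated mouse 2 or 3 (adjusted P of 0.126 to 0.240). Without treated mouse 3 the rise was 0.23. In quadriceps the changes were -0.42 ± 0.16 (adjusted P = 0.123) and 0.33 ± 0.16 (adjusted P = 0.229), the first called without treated mouse 2 or 3 (adjusted P = 0.0300 and 0.0629) and the second without treated mouse 2 (adjusted P = 0.0609). Of 17 other settings, 13 did not call the first and 16 did not call the second. The bin of Stac3 with the smallest P for HSA-LR against WT mice was 011, part of a noncoding transcript, at 0.205% ± 0.0472 of the gene in WT, 0.339% ± 0.0109 in HSA-LR and 0.2996% ± 0.106 in treated gastrocnemius (SD, n = 3). Its change of 0.71 ± 0.22 was not called with all libraries (adjusted P = 0.135) and was called without WT mouse 3 or treated mouse 3 (adjusted P = 0.0424 and 0.0336).

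Speg, a kinase of the myosin light chain kinase family, lies at chr1:75375297-75432320 on the plus strand and is transcribed as long forms and as short forms that end or start within it. Its gene sum in quadriceps was 495, 504 and 469 CPM in WT mice, 453, 409 and 467 in HSA-LR mice, and 518, 550.5 and 545 in treated mice. The treated mice were the highest 3. Speg rose with treatment by 0.29 ± 0.08 (adjusted P = 0.0575), lost without HSA-LR mouse 1 or 2 or any treated mouse (adjusted P of 0.122 to 0.174). The change in HSA-LR against WT mice was -0.14 ± 0.08 (adjusted P = 0.261). In gastrocnemius HSA-LR mice had 532, 502 and 507 CPM, and treated mice 547, 612 and 381. The lowest value was that of the library with 3′-shifted counts, and the change with treatment was 0.01 ± 0.15 with it and 0.17 without it, not called either way.

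Inside Speg, neighbouring bins 033 to 036 were used more in HSA-LR mice. They make up 1 exon at chr1:75403777-75404562 that ends short transcripts, coding at its start and 3′ UTR for the rest, and a read pair can count in more than 1 of them, so the 4 are not independent. Bin 034 took 0.156%, 0.204% and 0.177% of Speg in WT mice, 0.356%, 0.357% and 0.353% in HSA-LR mice, and 0.202%, 0.172% and 0.297% in treated mice of gastrocnemius. In quadriceps the shares were 0.153%, 0.176% and 0.130%, then 0.346%, 0.380% and 0.323%, then 0.129%, 0.116% and 0.158%. By share, HSA-LR mice lay above all others, and in gastrocnemius the treated mouse nearest to them was mouse 3. Per base against bins 032 and 038, bin 034 had ratios of 0.235 to 0.242 in HSA-LR gastrocnemius. Treated gastrocnemius had 0.113 to 0.303, which overlapped, and WT 0.110 to 0.153. The treated range likewise reached past HSA-LR gastrocnemius for bins 033, 035 and 036. In quadriceps bin 034 had 0.222 to 0.243 in HSA-LR and 0.0783 to 0.102 in treated mice. The relative use of bins 033 to 036 rose by 1.03 ± 0.22, 0.99 ± 0.22, 1.10 ± 0.22 and 1.17 ± 0.26 in HSA-LR gastrocnemius (adjusted P of 0.000509 to 0.00242), bin 034 losing its call without WT mouse 1 (adjusted P = 0.142). Bins 033 to 035 rose in quadriceps by 1.19 ± 0.25, 1.19 ± 0.24 and 1.14 ± 0.25 (adjusted P of 0.000934 to 0.00357), bin 035 losing its call without HSA-LR mouse 2 (adjusted P = 0.105), while bin 036 changed by 0.99 ± 0.29 (adjusted P = 0.198).

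With treatment the same 4 bins fell in quadriceps, with log2 changes of -1.31 ± 0.25, -1.37 ± 0.24, -1.32 ± 0.25 and -1.21 ± 0.29 and adjusted P of 4.30e-05 to 0.0304. Bin 036 lost this call without HSA-LR mouse 2 or any treated mouse (adjusted P of 0.165 to 0.437) and with the coverage ratio of each library in the model (adjusted P = 0.141). In gastrocnemius their changes with treatment, -0.71 to -0.81, were not called with all 9 libraries (adjusted P of 0.105 to 0.301). Without treated mouse 3 they were -0.929 to -0.996 and all 4 were called (adjusted P of 0.00188 to 0.0160), and likewise with the coverage ratio in the model (adjusted P of 0.00263 to 0.0175). A further bin, 026 (178 bp, chr1:75400085-75400262), is the 5′ UTR of 1 short transcript and was named after its values were seen. It rose by 0.95 ± 0.24 in HSA-LR gastrocnemius (adjusted P = 0.0210) and took 0.115% ± 0.00676 of Speg in WT, 0.221% ± 0.0241 in HSA-LR and 0.130% ± 0.0212 in treated mice (SD, n = 3). Leaving out HSA-LR mouse 1 or 2 or any WT mouse ended that call (adjusted P of 0.120 to 0.288), as did limma voom (adjusted P = 0.164). Its change with treatment in gastrocnemius was called only without treated mouse 3 or by the DEXSeq model (adjusted P = 0.0944 and 0.0120).

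**Figure D4:**
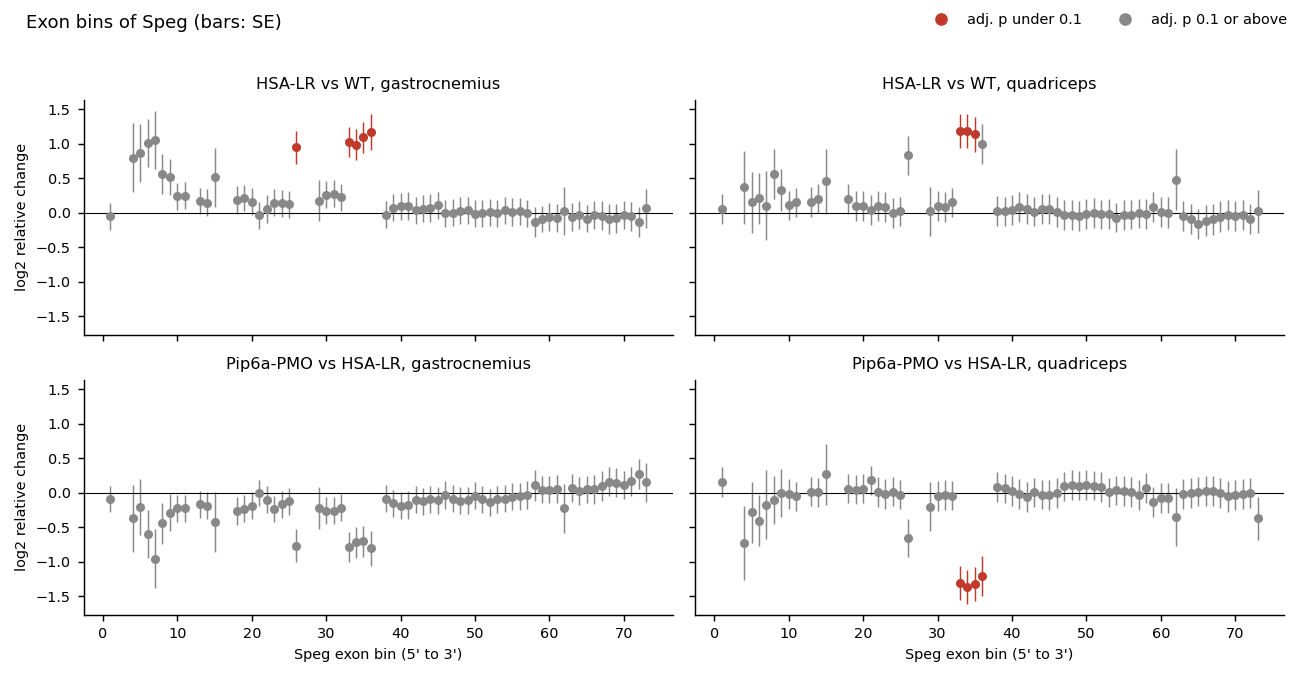
Relative change of each tested exon bin of Speg (log2, y axis) from the 5′ to the 3′ end of the gene (x axis), for HSA-LR against WT and Pip6a-PMO against HSA-LR mice in both muscles. Bars are the SE and coloured points the called bins. Bins 033 to 036 stand above 0 in HSA-LR mice, at up to 1.19 in quadriceps, and below 0 after treatment, at down to -1.37.

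The muscles were then compared with each other over all 18 libraries. Per length, the order in WT gastrocnemius was Bin1, Stac3, Jph2, Jph1, Speg, Dysf, Cav3, Dnm2, Mtmr14 and Mtm1, from 332 to 1.04 CPM per kb, and the order in quadriceps was the same. The length sums all exon bins of a gene. Bins found only in noncoding transcripts, as in Mtm1 and Dnm2, lower the value, so the order is that for this length. The length of Bin1 is of 1 matched transcript, and genes with short bins weigh more. The ranges of Stac3 and Jph2 overlapped in gastrocnemius, those of Cav3 and Dnm2 in quadriceps, and those of Dnm2 and Mtmr14 in both. Between the muscles of WT mice 0 of the 10 genes differed by edgeR (0.297% of all genes called), and 1, Mtm1, had an unadjusted P under 0.05, with a log2 difference of -0.24 ± 0.11 for gastrocnemius against quadriceps. The change from WT to HSA-LR mice and that from HSA-LR to treated mice differed between the muscles in 0 of the 10 genes, with 0% of all genes called in each and 0 of the 10 with an unadjusted P under 0.05. Of 292 bins tested, 0 differed in these 3 comparisons (0.0166%, 0.0155% and 0.0432% of all bins called for the change from WT to HSA-LR, the change with treatment and WT muscles), and 0, 2 and 1 had an unadjusted P under 0.05. For bin 007 of Bin1 the change from WT to HSA-LR mice in gastrocnemius minus that in quadriceps was -0.06 ± 0.31, and the same difference for the change with treatment was 0.35 ± 0.30. For bin 024 of Dnm2 the values were -0.14 ± 0.38 and -0.07 ± 0.38. For bin 034 of Speg they were -0.20 ± 0.31 and 0.65 ± 0.31, the latter with an unadjusted P of 0.0375. The other bin under 0.05 for the change with treatment was bin 013 of Bin1, at -0.89 ± 0.41 (unadjusted P = 0.0294). The same contrasts were not called for Jph2 (-0.25 ± 0.21 and 0.09 ± 0.21), which was called against WT mice in gastrocnemius and not in quadriceps.

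**Figure D5:**
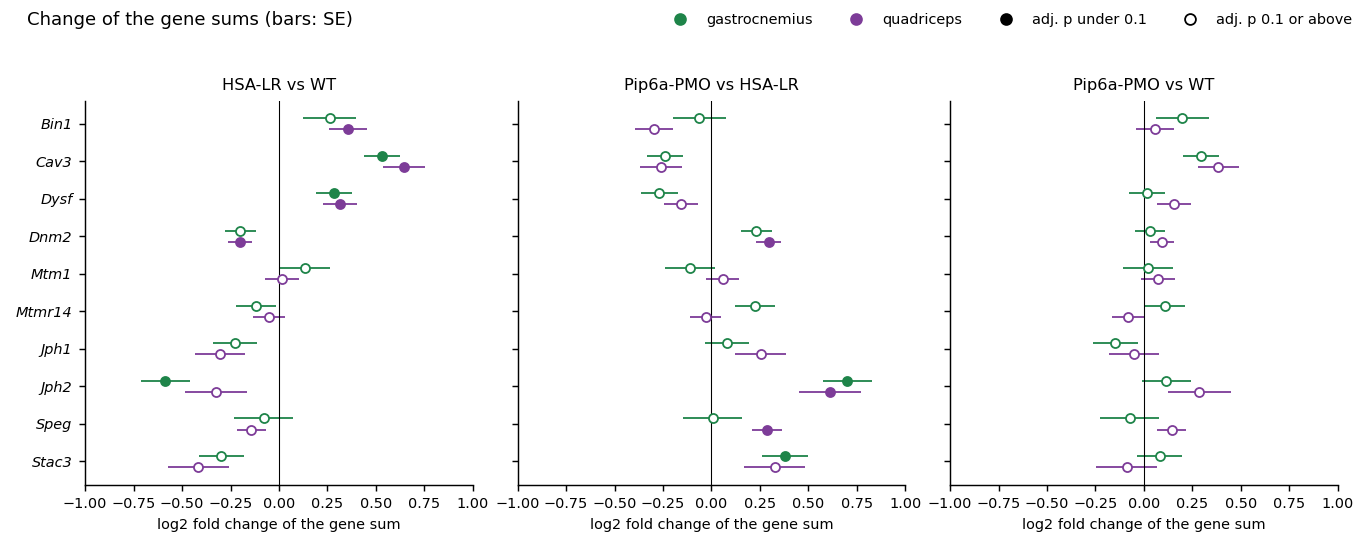
Log2 fold changes of the gene sums (x axis, bars are the SE) of the 10 genes for HSA-LR against WT, Pip6a-PMO against HSA-LR and Pip6a-PMO against WT mice, in gastrocnemius and quadriceps. Filled points passed adjusted P under 0.1. Cav3, at 0.53 and 0.64, lies farthest to the right in HSA-LR mice and Jph2, at -0.59 in gastrocnemius, farthest to the left, while 0 points are filled for treated against WT mice.

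Genes that act beside the 10 were taken from 7 lists of 76 genes in all, of which 72 in gastrocnemius and 71 in quadriceps were tested. In HSA-LR mice 5 rose and 5 fell in gastrocnemius, where 15.5% of all genes were called, and 8 rose and 5 fell in quadriceps, against 20.3%. With treatment 2 rose and 3 fell (10% of all genes), and 7 rose and 8 fell (13.8%). Against WT mice, treated mice differed in 1 and 2 of them (1.04% and 1.41%). The median log2 change of those tested lay between -0.03 and 0.05 in each of the 6 comparisons. By list, 2 of 12 caveola and membrane-shaping proteins rose and 3 fell in HSA-LR gastrocnemius, and 4 of 17 triad calcium release proteins rose and 1 fell in treated quadriceps, against the same shares of all genes. Among the relatives of amphiphysin and dynamin, 2 of 10 and 3 of 10 were called in HSA-LR mice, among the phosphoinositide enzymes 1 of 15 and 2 of 15, among the membrane repair proteins 0 of 9 and 2 of 8, among the relatives and partners of Speg 1 of 6 in each muscle, and among the other junctophilin and Stac genes 0 of 3 in each.

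The 7 genes of these lists called in HSA-LR mice in both muscles were Pik3c2b, Popdc3, Dnm3, Bves, Cacng1, Pacsin3 and Cavin1. Pik3c2b, which makes the phosphoinositides that myotubularin removes, rose by 0.81 ± 0.11 in gastrocnemius (adjusted P = 0.00228), with 21.6 to 25.2 CPM in the WT and 40.5 to 42.5 CPM in the HSA-LR libraries, and by 0.87 ± 0.15 in quadriceps (adjusted P = 0.00778). With treatment it fell by 0.64 ± 0.11 in gastrocnemius (adjusted P = 0.0140), and its change of -0.44 ± 0.15 in quadriceps was not called (adjusted P = 0.113). Cacng1, a subunit of the voltage sensor, rose by 0.71 ± 0.21 and 0.83 ± 0.13 (adjusted P = 0.0633 and 0.00523), and in quadriceps fell by 0.59 ± 0.13 with treatment (adjusted P = 0.0360), with -0.26 ± 0.21 in gastrocnemius, not called (adjusted P = 0.502). Popdc3 and Bves, both of the Popeye family of membrane proteins, rose by 0.53 and 0.37 in gastrocnemius and by 0.76 and 0.60 in quadriceps. Pacsin3, which bends membranes as amphiphysin does, rose by 0.25 and 0.34, and Cavin1, which coats caveolae and is also abundant in fat and vessels, fell, with changes of -0.44 and -0.38. Dnm3, a relative of Dnm2, fell by 0.69 ± 0.16 (adjusted P = 0.0238) and fell by 1.54 ± 0.16 (adjusted P = 0.000748). It was the 1 of these genes that also differed between treated and WT mice in both muscles, by -0.74 ± 0.16 (adjusted P = 0.0987) and -0.94 ± 0.16 (adjusted P = 0.0517).

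Over the 18 libraries, the genes whose level was most like that of Bin1 were Aamdc, Stx4a and Cacng1, each with a Pearson r of 0.94 in log2 CPM. For the share of bin 007 among 145348 bins, the nearest were bin 012 of Ldb3 (r = -0.988), bin 003 of Ighm (0.988), bin 002 of Palld (-0.983), bin 014 of 4833439L19Rik (0.983) and bin 002 of Tuba4a (0.983). Within the 10 genes, r with bin 007 was -0.946 for bin 022 of Dnm2, 0.921 for bin 016 of Bin1, 0.898 for bin 024 of Dnm2 and 0.891 for bin 033 of Speg. The libraries share mice, groups and depth, so these are descriptions and were not tested.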

How the data were processed

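RNA was extracted from gastrocnemius and quadriceps with DNase treatment, and libraries were made with a stranded poly(A) kit. The submitters' processing notes name CASAVA, HISAT and featureCounts 1.5.0 and the build GRCm38, without their roles. The files deposited by the authors hold, for each library, the raw counts of pairs in every exon bin as DEXSeq's counter writes them, neither normalized nor pooled. A pair is counted in each bin it overlaps, which gives genes with short bins more weight in a gene sum. Rows that name no gene (2.82% to 4.14% of the counts) did not enter any total or test. Symbols, positions and exon roles came from GENCODE M21 (GRCm38), and the exon sequences from its transcripts.

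The 10 genes, the lists of related genes, the markers and the tests were chosen with earlier results of these data known. Named were all 10 genes, the list genes called in HSA-LR against WT mice in both muscles, the alternative bins of Bin1, up to 4 called bins of each other gene or, with 0 called, the bin of smallest P, and the genes and bins most like Bin1 and its bin 007 by Pearson r. Bins 022 of Dnm2 and 026 of Speg were added after their values were seen.

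Groups came from the labels. Bin counts were summed per gene, kept by filterByExpr (minimum count 10, minimum total 15), scaled by TMM and tested with the quasi-likelihood test of edgeR 4.0.16 in R 4.3.3, fitting all 9 libraries of a muscle together. Bins were tested with diffSpliceDGE and differences between muscles as interactions over 18 libraries. P-values were adjusted by Benjamini-Hochberg over all genes or bins, and adjusted P under 0.1 was called. The SE of a bin is its log2 change divided by the normal quantile of its P. CPM are counts per 1000000 counts of the TMM-scaled library. CPM per kb divide them by the summed length of all exon bins of the gene, bins of noncoding transcripts included. Shares were compared with two-sided exact permutation tests. The alternatives used DESeq2 1.42.0, limma 3.58.1 (voom), other filters and scalings, the replicate number as a block, the coverage ratio as a covariate and leaving out each library. On simulated counts for HSA-LR against WT gastrocnemius, edgeR recovered 99.5% of 200 genes changed by 1 on the log2 scale among 15409, with 9.55% of its calls false (DESeq2 98.5%, with 17.9% false), and 100% of 200 bins changed by 1.5 among 28761, with 8.68% false. Those counts were drawn independently with a fixed spread, and a single small bin was changed per gene. The 3′ shift and pairs shared between bins were not simulated, so the rates need not hold for the data. With 3 mice a group, P-values of genes rest on the spread between these mice. The bin test pools the spread over the bins of a gene, so its small P-values do not measure the spread between mice alone. The exact test on 3 against 3 mice cannot go below 0.1. Intervals of sequencing depth are not added since counts of read pairs without molecular identifiers are not independent molecules.

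Replicate numbers of different groups mark different mice. The same number within a group marks 1 mouse in both muscles, and the deviations of its 2 libraries from their group means had a median correlation of 0.209 (0.0650 to 0.510) over 9 mice, above 0.1 in 7 of 9.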

Additional observations from a re-analysis of the deposited data

How the results depend on the processing

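Of 35 calls on single genes and bins of the 10 genes, 22 were kept in every alternative and 13 were lost in at least 1, and 0 called values changed sign. Among gene sums, the calls kept throughout were those of Cav3 in HSA-LR against WT mice and of Jph2 in gastrocnemius. Every other called gene sum, of Bin1, Dnm2, Dysf, Stac3, Speg and, in quadriceps, Jph2, lost its call in at least 1. Most kept calls were thus of bins, among them bins of 1 Speg exon that are not independent. The number of genes called for Pip6a-PMO against HSA-LR gastrocnemius, 2, became 1 with upper-quartile scaling, with at least 1 count in any library, with at least 10 counts in every library, with the replicate block and with the 2 groups alone, and 4 with DESeq2. That for HSA-LR against WT gastrocnemius, 3, became 5 with the 2 groups alone, and that for Pip6a-PMO against WT quadriceps, 0, became 1 with DESeq2. The number of bins called for Pip6a-PMO against HSA-LR gastrocnemius, 3, became 6 with the DEXSeq model and 7 with the coverage ratio as a covariate, and that for HSA-LR against WT quadriceps, 6, became 11 with limma voom. The cause of these moves was not tested.

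With a library left out in turn, the genes called ranged from 2 to 5 (HSA-LR against WT) and 1 to 3 (Pip6a-PMO against HSA-LR) in gastrocnemius, and from 1 to 6 and 0 to 3 in quadriceps, while the bins called ranged from 6 to 11 and 2 to 8, then 5 to 6 and 5 to 6. The 8 bins were called without the 3′-shifted library of Pip6a-PMO mouse 3.

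Values that changed sign were uncalled. For Pip6a-PMO against HSA-LR gastrocnemius, the log2 change of Speg was -0.0016 with upper-quartile scaling, -0.0058 with at least 10 counts in every library, -0.014 with the replicate block and -0.14 to 0.17 with libraries left out, and bin 014 of Bin1 was 0.11 with the covariate and -0.53 to 0.029 with libraries left out. For quadriceps, with the largest bin for the gene sum, Mtmr14 was 0.062 and Mtm1 -0.12, and Mtmr14 was -0.071 to 0.00051 with libraries left out. Leaving out libraries also moved across 0 the changes with treatment in gastrocnemius of Bin1 (-0.25 to 0.056), Mtm1 (-0.19 to 0.019) and Jph1 (-0.015 to 0.15), those of HSA-LR against WT quadriceps of Mtmr14 (-0.11 to 0.0078), Mtm1 (-0.057 to 0.075), Bin1 bin 013 (-0.077 to 0.28), Mtmr14 bin 002 (-0.37 to 0.089) and Cav3 bin 001 (-0.039 to 0.017), Bin1 bin 007 in Pip6a-PMO against WT quadriceps (-0.039 to 0.25), and the muscle differences of Bin1 bin 007 for HSA-LR against WT (-0.20 to 0.12) and of Dnm2 bin 024 with treatment (-0.37 to 0.063).

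The replicate numbers pair no mice of different groups. Beside the calls named in the report, the replicate block added bin 036 of Speg for HSA-LR against WT quadriceps (adjusted P = 0.0759) and changed no other call, and the mouse as a block changed no difference between the muscles. Counts under 100 behind bin 007 of Bin1 in WT and treated libraries, and behind bin 024 of Dnm2 there, limit how well their low level is known. With 3 mice a group, small differences between treated and WT mice may have gone undetected.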
